A study of Mus musculus with 18 samples.

Results

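Smooth muscle cells were examined in the 2 single-cell libraries made from or enriched for the detrusor, the muscular wall of the mouse urinary bladder. A barcode was counted as a smooth muscle cell when it had at least 500 unique molecular identifiers (UMIs), at most 20% mitochondrial counts, at least 2% of its UMIs in 10 muscle genes (Myh11, Actg2, Des, Cnn1, Tagln, Lmod1, Synm, Acta2, Synpo2 and Smtn) and at least 0.3% in Actg2 and Des together. The cells were thus chosen by their own levels of these genes, which are given below as a description. The rule found 317 cells among the 11094 barcodes of these libraries that passed the limits on UMIs and mitochondrial counts (12563 barcodes in all). The library labelled detrusor-only held 243 of them among 5669 passing barcodes, or 4.29% (95% Clopper-Pearson interval 3.77% to 4.85%). The library labelled detrusor-enriched held 74 among 5425, or 1.36% (1.07% to 1.71%). The remaining 5426 and 5351 passing barcodes are called the other cells of their library.

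All samples of the series came from C57BL/6 mice, and no allele or agent is named. The detrusor-only library was labelled as the detrusor layer pooled from 3 females of 14 months, and the detrusor-enriched library as whole bladder pooled from 2 females and 2 males of 14 months. For reference, 1 library of nuclei (12 months, 2 females and 2 males), 5 libraries of whole-bladder cells (3 males of 3 months, 3 males of 22 months, and 2 females and 2 males of 12 months in a pair of libraries and of 24 months in 1), 4 tissue sections (2 of 22-month and 2 of 14-month males) and 6 bulk RNA libraries of 12-month bladders (3 intact, 3 dissociated, each labelled with 3 females) were used. Each detrusor library is a single pool, so no value within it has a replicate, intervals cover counting error only, and no p-value is given between cells.

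The libraries held 52388504 UMIs (labelled detrusor-only) and 55374101 UMIs (labelled detrusor-enriched). The smooth muscle cells carried 3419606 and 491054 of these. Of the barcode sequences, 15 occurred in both files, and 0 of those were smooth muscle cells in both. Sex-linked genes went against the labels of both libraries. The library labelled with 3 females held Xist, which is transcribed from the inactive X chromosome, at 326 CPM (counts scaled to the total UMIs), and 4 Y-linked genes at 79.3 CPM. The library labelled with 2 females and 2 males held Xist at 0.0722 CPM and the Y-linked genes at 188 CPM. The names of the libraries below are therefore those of their labels.

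Detrusor smooth muscle contracts to empty the bladder. Acetylcholine acting on muscarinic receptors and ATP acting on the P2X1 channel start the contraction, calcium enters through L-type channels, and myosin light-chain kinase activates smooth muscle myosin on actin filaments. BK-type potassium channels damp excitability, and the muscle also carries actin isoforms and sarcomere-type proteins better known from heart and skeletal muscle. Serum response factor and its partner myocardin switch on many of these genes through CArG boxes, short DNA elements near gene starts.

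Promoter sequence was available from RefSeq (GRCm38.p6) for 39 of the 50 genes that led the smooth muscle cells (defined below) and for 7 of the 10 genes of the rule. A CArG box, whose consensus covers both strands, lay in the 250 bases before the start of 7 of these 39 genes (17.9%): Asb2, Fbxl22, Myl9, Acta1, Lmcd1, Ldb3 and Myom1. It lay there in 0 of the 7 rule genes and in 439 of the 27025 genes with a promoter sequence (1.62%). Myh11, Actg2 and Tagln were the rule genes without a sequence. Only exact matches to the consensus in this window were counted, so the 0 does not show that the rule genes lack a box. A match is a description of these letters only. The 4 windows of leading genes shown first carry a single box each, in capitals, and are the genes whose products range from a ubiquitin ligase subunit (Asb2) over a myosin light chain (Myl9) and skeletal-type actin (Acta1) to a sarcomere M-band protein (Myom1). The last window belongs to Rergl, the single gene with a box among the 21 matched genes that marked a second kind of muscle cell described below. They lie at chr12:103356002-103356251, minus strand; chr2:156775214-156775463, plus strand; chr8:123894776-123895025, minus strand; chr17:71019307-71019556, plus strand; and chr6:139501910-139502159, minus strand. The box began 64, 161, 73, 99 and 49 bases before the start, in the order shown.
Asb2: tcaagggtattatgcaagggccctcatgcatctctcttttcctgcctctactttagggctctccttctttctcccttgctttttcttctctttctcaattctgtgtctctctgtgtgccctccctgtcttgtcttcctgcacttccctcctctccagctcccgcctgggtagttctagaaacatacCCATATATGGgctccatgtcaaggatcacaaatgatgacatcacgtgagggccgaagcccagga
Myl9: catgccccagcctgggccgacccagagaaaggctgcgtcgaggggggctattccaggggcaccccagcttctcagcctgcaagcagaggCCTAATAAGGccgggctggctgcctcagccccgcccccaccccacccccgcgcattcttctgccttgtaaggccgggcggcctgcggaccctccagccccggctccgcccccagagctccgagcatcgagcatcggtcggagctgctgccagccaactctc
Acta1: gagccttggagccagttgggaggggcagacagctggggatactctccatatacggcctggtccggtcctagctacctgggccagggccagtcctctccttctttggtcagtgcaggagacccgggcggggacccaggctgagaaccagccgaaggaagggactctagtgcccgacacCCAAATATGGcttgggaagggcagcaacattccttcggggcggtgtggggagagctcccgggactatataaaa
Myom1: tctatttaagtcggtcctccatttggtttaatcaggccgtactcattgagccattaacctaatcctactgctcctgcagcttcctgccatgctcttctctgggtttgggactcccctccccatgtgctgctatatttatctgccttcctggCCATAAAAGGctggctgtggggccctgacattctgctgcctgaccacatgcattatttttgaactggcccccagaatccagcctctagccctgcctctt
Rergl: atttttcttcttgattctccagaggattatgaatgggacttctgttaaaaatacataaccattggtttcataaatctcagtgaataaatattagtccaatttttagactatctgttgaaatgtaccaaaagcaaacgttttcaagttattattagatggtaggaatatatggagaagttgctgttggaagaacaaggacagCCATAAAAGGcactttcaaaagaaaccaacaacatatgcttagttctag

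The genes of the rule describe the cells and carry no test. They made up 6.87% of the UMIs of the smooth muscle cells and 0.252% of those of the other cells in the library labelled detrusor-only, and 5.82% against 0.209% in the library labelled detrusor-enriched. Acta2, smooth muscle actin, stood at 19315 and 17959 CPM in the smooth muscle cells of the 2 libraries, in the order just given. Tagln (transgelin) stood at 18690 and 18063 CPM, and Myh11, the smooth muscle myosin heavy chain, at 7336 and 7073 CPM. Actg2, the enteric-type smooth muscle actin, was at 7483 CPM (95% Poisson interval 7391 to 7575) in the former library and 4299 (4117 to 4486) in the latter. Des (desmin) stood at 7031 and 4773 CPM and Cnn1 (calponin) at 4777 and 2503 CPM. The first 3 genes were thus at like levels in both libraries, and the last 3 were lower in the library labelled detrusor-enriched.

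The rule cuts through a continuum at its low end. In the library labelled detrusor-only, the cells just inside and just outside the 2% limit held 2.02% and 2.00% of UMIs in the 10 genes, and 30 smooth muscle cells lay between 2% and 3%. In the other library these values were 2.04% and 1.97%, and 30 of its 74 cells lay in that range. Cells rich in fibroblast genes also held Actg2 UMIs, and the source of these was not tested. With each cell thinned to 2000 UMIs, Actg2 had a UMI in 98.5% of smooth muscle cells and 19.0% of cells rich in fibroblast collagen genes (median depths before thinning 15282 and 9255 UMIs) in the library labelled detrusor-only. The shares were 87.1% and 12.8% in the library labelled detrusor-enriched (1498 and 11929 UMIs). Thinning left out 47 of 243 and 43 of 74 smooth muscle cells as too shallow, and the unthinned shares were 97.5% and 93.2% of smooth muscle cells against 57.6% and 41.6% of fibroblast-marker cells.

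Markers of other cell types differed in level. The 11 pericyte and mural genes took 0.0332% of the UMIs of smooth muscle cells against 0.0498% of the other cells in the library labelled detrusor-only, and 0.160% against 0.0352% in the library labelled detrusor-enriched. In the latter, the 10 urothelial genes took 0.381% in its 49 smooth muscle cells under 5000 UMIs against 0.337% of the other cells. Their part in the results was not tested. Of 12 fibroblast genes tested, 10 were at least 4-fold lower in the smooth muscle cells than in the other cells of both libraries, and their sum was 0.195% against 2.90% of UMIs (labelled detrusor-only) and 0.155% against 2.03% (labelled detrusor-enriched). The 7 endothelial and 7 immune genes that entered the comparison were at least 4-fold lower in both. In the library labelled detrusor-only each entered through the other cells alone, as did the endothelial genes in the other library. Their direction there was thus fixed by the limit of 50 CPM. The same holds for any fibroblast gene under 50 CPM in the smooth muscle cells. Ptprc, the pan-leukocyte antigen, was at 0.292 CPM in the smooth muscle cells labelled detrusor-only and 0 in those labelled detrusor-enriched. Over all 3029 genes at 50 CPM or more in the smooth muscle or other cells of both libraries, 190 (6.27%) were 4-fold lower in both. The 10 with the smallest ratios were Flt1, Ccl21a, Ccl4, Pf4, C1qa, H2-Eb1, Igkc, Ighm, H2-Aa and C7, genes of endothelium, macrophages, B cells and stroma. Fast skeletal myosin genes were at or near 0, unlike the striated-type genes described below. Myh1, a fast myosin heavy chain, was at 0.292 and 0 CPM, Myh4 at 0 in both, and Mylpf, the fast myosin light chain, at 1.17 and 2.04 CPM. Ckm, another skeletal muscle marker, stood at 325 and 108 CPM, and Tnnt3, also such a marker, is named below.

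In both libraries 145 of 3029 genes (4.79%), the 10 rule genes among them, were at least 4-fold higher in the smooth muscle cells than in the other cells. Since the rule sorted the cells, these are descriptions. The 50 genes with the largest ratio in the library where it was smaller, rule genes left out, are called the leading genes. First among them came Col25a1, a transmembrane collagen, at 84.2 CPM against 1.38 in the other cells (ratio 61.2, 95% interval 46.4 to 81.7) and 81.5 against 1.18 (ratio 68.8, 45.0 to 104). In the library labelled detrusor-enriched, Col25a1 stood at 483 CPM in the smooth muscle cells under 5000 UMIs. It stood at 59.2 and 12.7 CPM in the deep mural-poor and mural-rich cells described below, so its rank there leans on the shallow cells. A list ranked from smooth muscle cells with 5000 UMIs or more shared 48 of the 50 genes. Tnnt2, cardiac troponin T, stood at 1611 against 19.8 CPM and 619 against 11.1. Ckm, muscle creatine kinase, stood at 325 against 4.48 and 108 against 2.09. The transcript BC051019, Fhod3 (a sarcomere formin), Ank1 (an ankyrin), P2rx1, Optc (opticin), Sntg2 (a syntrophin) and Sh3bgr completed the first 10. The next 10 were Kcnmb1, Pdlim3, Asb2, Kcnma1, Fbxl22, Hspb6, Tcap, Bdh1, Popdc2 and Mylk. The plot of these genes shows both groups of cells in both libraries.

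**Figure D1:**
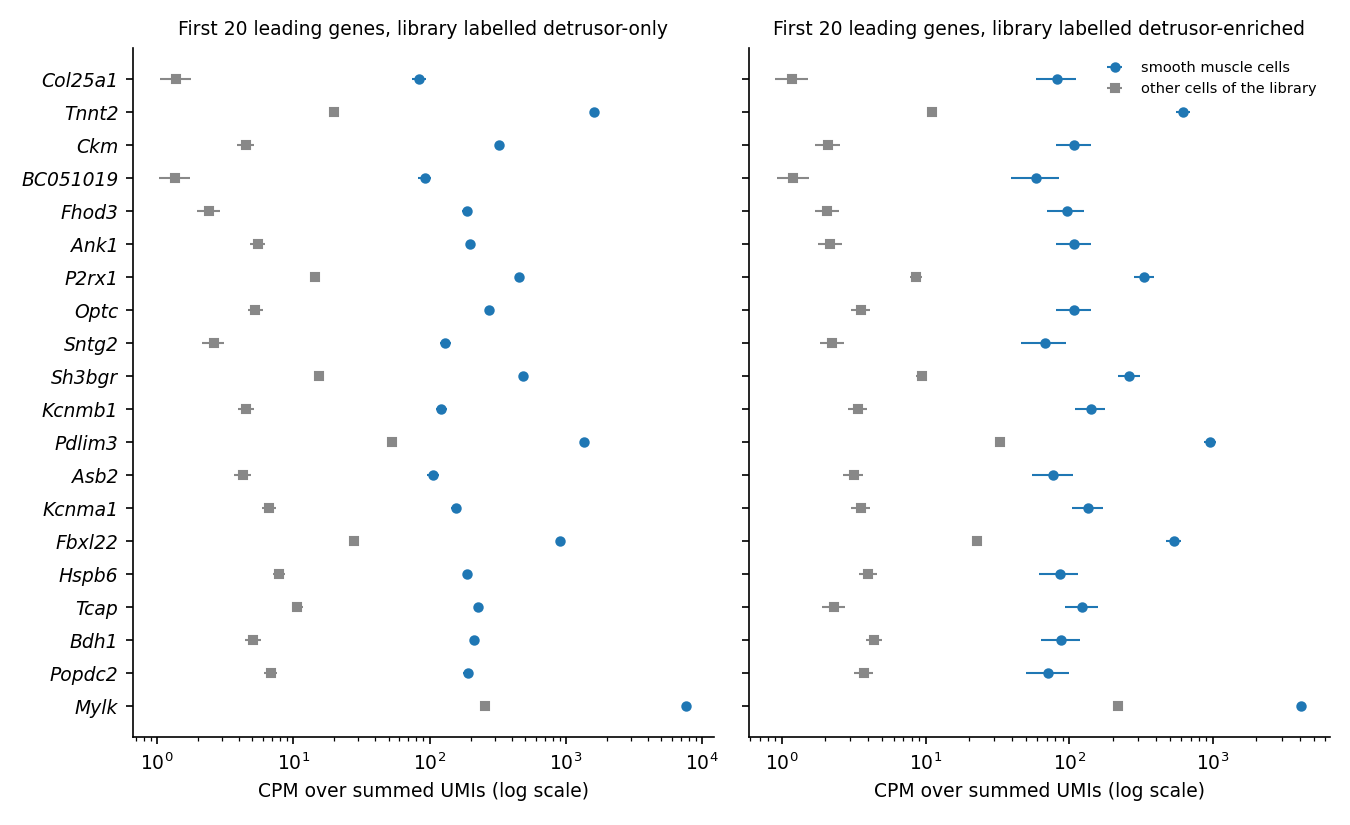
Level in CPM (log scale) of the 20 first leading genes in the smooth muscle cells (circles) and the other cells (squares) of each library, with 95% Poisson intervals. Every circle lies to the right of its square, from Col25a1 at 84.2 and 81.5 CPM to Mylk at 7667 and 4065 CPM.

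The contractile machinery beyond the rule followed the same pattern. Of 23 further contractile genes tested, 20 were at least 4-fold higher in both libraries and 0 lower. For these and the lists that follow, the shares over all 3029 genes were 4.79% higher and 6.27% lower, and the rule chose the cells on the same contrast. A gene under 50 CPM in one of the populations entered only through the other, where it is high, so such counts are descriptions and support nothing. Tpm2, a tropomyosin, reached 11536 and 9205 CPM against 490 and 545 in the other cells. Tpm1 stood at 8196 and 5749 CPM, and Mylk, myosin light-chain kinase, at 7667 and 4065 CPM. Myl9, whose promoter is shown above, was at 5754 and 5228 CPM against 294 and 310. Vcl (vinculin), Tln1 (talin) and Cryab (a small heat-shock protein) were the 3 tested genes that stayed under 4-fold in a library. Vcl stood at 247 and 291 CPM against 56.7 and 102. Smtnl2, a smoothelin relative, was at 0.877 and 0 CPM.

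Genes usually assigned to striated muscle, and Pcp4, which is not such a gene but shares their list, were also detected in the smooth muscle cells. Of an 11-gene list, 4 entered the comparison, each through the smooth muscle cells alone, and were at least 4-fold higher there in both libraries: Acta1 (skeletal actin), Pcp4 (a calmodulin regulator), Tnnt2 and Ckm. In the library labelled detrusor-only, Acta1 stood at 1178 CPM, Pcp4 at 1300 and Actc1, cardiac actin, at 123. In the library labelled detrusor-enriched these were 106, 91.6 and 4.07 CPM. The list as a whole, Pcp4 included, took 0.466% of UMIs in the former and 0.0975% in the latter.

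Of 18 receptor and receptor-signalling genes, 3 reached the level needed for a comparison, and 2 of these, P2rx1 and Rgs2, were at least 4-fold higher in both libraries, P2rx1 having entered through the smooth muscle cells alone. The other, Npy1r, stood at 31.6 and 242 CPM against 284 and 138. P2rx1, the ATP-gated channel of detrusor contraction, stood at 455 and 332 CPM against 14.3 and 8.58 in the other cells. Chrm2, the more abundant muscarinic receptor, was at 48.5 and 46.8 CPM against 1.33 and 1.26. Chrm3, the muscarinic receptor that triggers contraction, was at 22.2 and 22.4 CPM against 1.92 and 1.16, and Adrb3, the beta-adrenergic receptor of bladder relaxation, at 12.0 and 14.3 against 1.60 and 1.32. These last 3 lay under the 50 CPM limit in a library and did not enter the counts. Rgs2, which damps G-protein signals, stood at 852 and 350 CPM, 8.12 and 6.48 times the other cells.

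The BK channel subunits Kcnma1 (156 and 134 CPM) and Kcnmb1 (122 and 141 CPM) were 23.4 and 26.9 times the other cells in the library labelled detrusor-only and 38.1 and 41.4 times in the other. With the L-type calcium channel subunits Cacna1c (54.1 and 67.2 CPM) and Cacnb2 (74.6 and 61.1 CPM), they were the 4 of 9 tested channel and calcium genes past 4-fold in both, and all 4 entered through the smooth muscle cells alone. Kcnf1, a modifier subunit of potassium channels, stood at 43.0 and 36.7 CPM against 0.787 and 0.375. Piezo1 and Piezo2, the stretch-gated channels, were at 8.48 and 0.585 CPM against 25.6 and 13.7 in the library labelled detrusor-only, and at 16.3 and 0 against 27.0 and 9.39 in the other.

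Among regulators, Myocd (myocardin) stood at 70.2 and 110 CPM against 4.94 and 3.92, and Carmn, a long non-coding RNA partner of myocardin, at 178 and 448 CPM against 16.5 and 19.6. These were the 2 of 7 tested regulators past 4-fold in both, and both entered through the smooth muscle cells alone. Srf, the partner that binds the CArG box, stood at 55.9 and 61.1 CPM against 15.9 and 26.8. Of 10 adhesion and dystrophin-complex genes tested, Dmd (dystrophin) was past 4-fold in both, at 335 and 352 CPM against 46.8 and 36.2. Itgb1, the beta-1 integrin, stood at 1096 and 1018 CPM against 374 and 325. Of 11 basement-membrane and matrix genes tested, 0 were 4-fold higher in both and 1, Fbln5 (an elastic-fibre protein), was 4-fold lower in both, at 34.8 and 34.6 CPM against 375 and 320. These adhesion and matrix counts are near the 4.79% and 6.27% of all genes. Col4a1, a basement-membrane collagen, stood at 454 and 452 CPM, against 216 and 239 CPM in the other cells.

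The cells that met the rule were of more than 1 kind. A split was made after the data had been seen, by depth (5000 UMIs) and by the share of UMIs in 11 genes of pericytes and vascular mural cells (0.1%). In the library labelled detrusor-only, 168 deep cells were mural-poor, 17 deep cells were mural-rich and 58 were shallower than 5000 UMIs, and they carried 93.3%, 4.45% and 2.23% of the UMIs. In the library labelled detrusor-enriched the numbers were 8, 17 and 49 cells, carrying 41.3%, 48.2% and 10.5% of the UMIs. The 2 libraries therefore differed in the mix of kinds that their summed profiles hold. No deep cell lay between 0.0966% and 0.108% in the former library or between 0.0684% and 0.104% in the latter. Of the deep cells, 6 inside and 3 outside in the former, 2 and 0 in the latter, lay between 0.07% and 0.13%. The shallow cells were not split by these genes and do not enter these values.

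**Figure D2:**
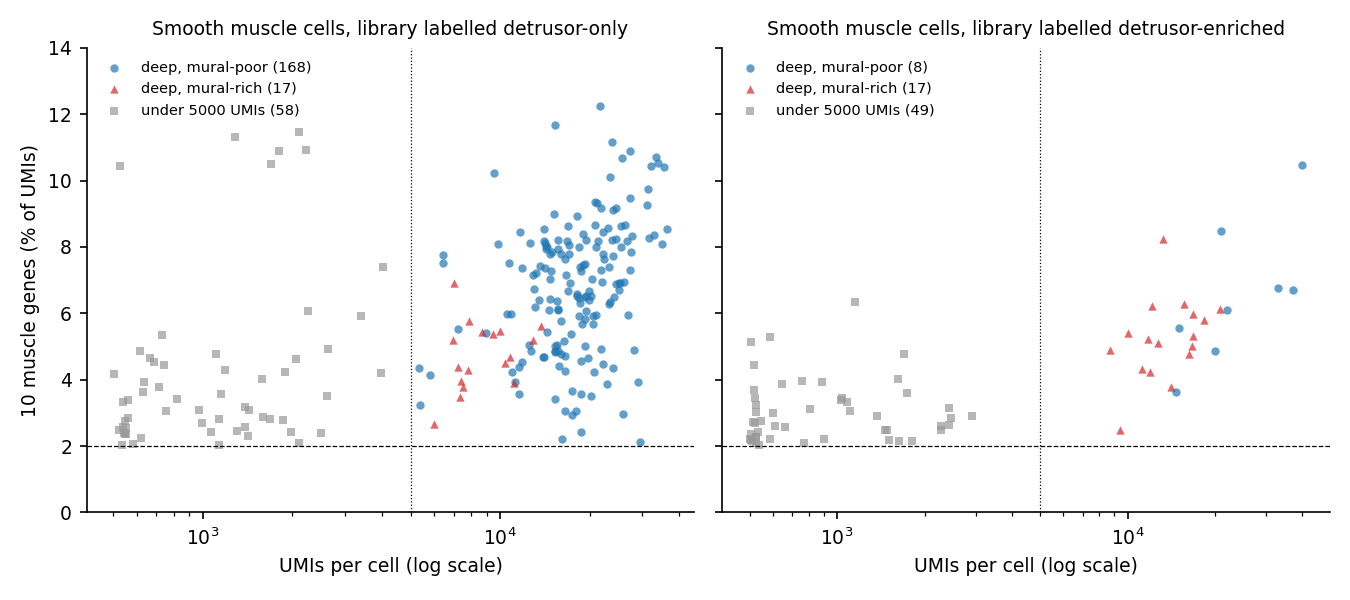
Each smooth muscle cell by its UMIs (log scale) and the share of UMIs in the 10 muscle genes, for the library labelled detrusor-only (left) and detrusor-enriched (right). The dashed line is the 2% limit of the rule and the dotted line 5000 UMIs; 168 deep mural-poor cells fill the left panel, while the right panel holds 8 of them beside 17 mural-rich and 49 shallow cells.

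Crip1, a LIM-domain protein that was on neither list, followed the split. Its share was at least 0.430% of UMIs in 16 of 17 mural-rich cells of the library labelled detrusor-only and at least 0.467% in 16 of 17 of the other. It did not exceed 0.228% in the 168 mural-poor cells of the former or 0.0274% in the 8 of the latter. Actg2 ran the other way. Its median share was 0.0815% in the mural-rich and 0.589% in the mural-poor cells of the former library, and 0.109% and 0.412% in those of the latter, although the ranges overlapped. The limit of 0.3% on Actg2 and Des cut the mural-rich cells at its edge: their median for this sum was 0.360% and 0.356%, their lowest 0.301% and 0.303%, and 193 and 105 cells of the 2 libraries met the 2% limit but not this one. The number of mural-rich cells and their Actg2 and Des levels are therefore set in part by the rule. The plot of Crip1 and Actg2 against the mural genes shows each deep cell.

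**Figure D3:**
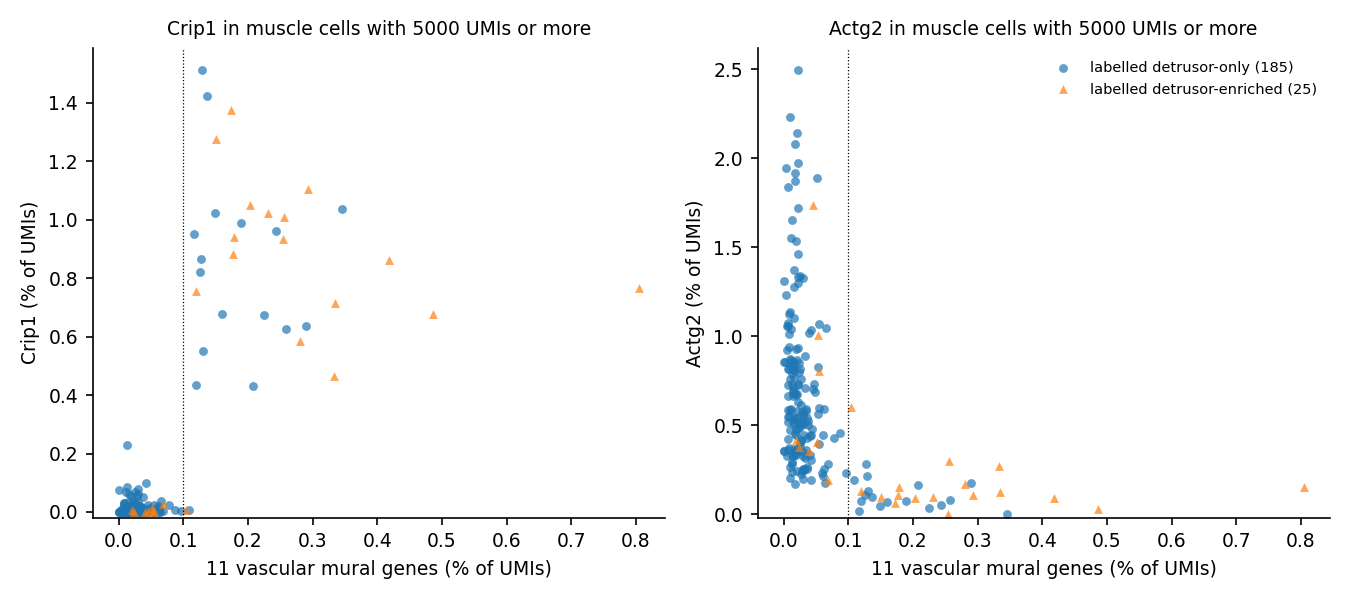
Crip1 (left) and Actg2 (right), as % of UMIs, against the share of UMIs in 11 vascular mural genes, in the 185 and 25 smooth muscle cells with at least 5000 UMIs of the libraries labelled detrusor-only (circles) and detrusor-enriched (triangles). To the right of the dotted line at 0.1%, 16 of 17 cells of each library are high in Crip1 and most are low in Actg2.

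The summed profiles of the 2 kinds agreed in Acta2 (18665 mural-rich and 19533 mural-poor CPM in the library labelled detrusor-only, 21197 and 17198 in the other) and in Myh11 (6373 and 7379, 6898 and 8071). They parted in Actg2 (1052 and 7847 CPM, 1593 and 7498), in Des (2848 and 7237, 2775 and 7202) and in Cnn1 (1131 and 5010, 1031 and 4448). Of 2937 genes at 50 CPM or more in either kind, 176 (5.99%) were at least 4-fold higher and 88 (3.00%) at least 4-fold lower in the mural-rich cells of both libraries. All of these are descriptions, as the split was made from the same cells.

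Mural-rich cells held Sncg (gamma-synuclein) at 1190 and 828 CPM against 5.01 and 0 in mural-poor cells. Dgkb, a diacylglycerol kinase, was at 625 and 477 CPM against 2.19 and 0. Notch3, the mural-cell Notch receptor and a gene of the splitting list, was at 322 and 329 CPM against 0 and 4.94. Pln, phospholamban, the brake on the calcium pump of the sarcoplasmic reticulum, was at 381 and 486 CPM against 12.8 and 14.8. Npy1r, a neuropeptide Y receptor, was at 474 and 498 CPM against 9.40 and 0. Gja4, a gap-junction protein of vessels, was at 204 and 313 CPM against 2.19 and 0. Hey2, a Notch target, was at 112 and 148 CPM against 0.313 and 0. In mural-rich cells the muscarinic receptors were at or near 0, with Chrm2 at 0 and 4.22 CPM and Chrm3 at 0 in both, while P2rx1 stood at 322 and 368 CPM.

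Mural-poor cells held Igfbp2, an insulin-like growth factor binding protein, at 775 and 1446 CPM against 0 and 118 in mural-rich cells. Optc was at 285 and 247 CPM against 6.58 and 4.22, and Bdh1, a ketone-body enzyme, at 223 and 178 against 0 and 16.9. Ptprz1, a receptor phosphatase, was at 68.6 and 262 against 0 in both. With 152045 and 236728 UMIs in the mural-rich sums, a count of 0 has an exact upper 95% Poisson limit of 24.3 and 15.6 CPM.

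Mural-marker cells outside the rule (161 and 97 cells) were picked for at least 0.5% of UMIs in the same 11 genes, so their higher pericyte genes, like the higher Acta2 of cells inside the muscle rule, follow from the choice and are given as levels only. Rgs5 stood at 105 and 756 CPM in the mural-rich cells and at 3919 and 5362 CPM in those cells outside the rule, and Kcnj8, a pericyte potassium channel, at 59.2 and 67.6 against 883 and 657. Acta2 stood at 18665 and 21197 CPM against 3540 and 4059. Which vessels or layers the mural-rich cells came from was not tested.

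Within the 168 mural-poor cells of the library labelled detrusor-only, thinned to 5000 UMIs each, some genes varied far beyond counting error. The variance divided by the mean (1 for pure counting error) had a median of 1.37 over the 591 genes with a mean of at least 1 UMI. The highest values were 70.7 for the nuclear RNA Malat1, 44.2 for Dcn and 43.5 for Gm42418, followed by Mgp (matrix Gla protein) and Gsn (gelsolin, 23.3). Among muscle and other genes of the profile it was 23.3 for Acta1, 15.8 for Actg2, 11.7 for Pcp4, 10.6 for Igfbp2 and 7.66 for Ogn (osteoglycin). Acta1 was at 0 in 91 of the cells and at 59 UMIs in the highest, and Pcp4 ran from 0 in 60 cells to 44 UMIs. Actg2 was present in all, from 7 over a median of 29.5 to 126 UMIs. Dcn, a fibroblast gene, had a median of 1 UMI and a highest of 99 UMIs, and 7 of the 168 cells had more than 1% of their UMIs in the 12 fibroblast genes. Of all 8 smooth muscle cells of this library above that share, Scrublet, which looks for doublets, marked 6. The part of doublets in the spread was not tested.

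The 28 cells with 10 or more Acta1 UMIs and the 91 with 0 differed by choice in that gene (5104 and 30.5 CPM). Their other levels were Actg2 at 12283 and 6230 CPM, Pcp4 at 2270 and 897, Ckm at 634 and 218, Ogn at 214 and 1103, Fos at 2757 and 5194, and Atf3, another early stress gene, at 896 and 2266. The fibroblast gene Dcn stood at 202 and 1238 CPM, and its part in these differences was not tested. Tnnt2 stood at 1757 and 1780 and Acta2 at 20554 and 18827, close to each other. Cells with Xist but no Y-linked UMI made up 13 of the 28 and 54 of the 91, and cells with Y-linked UMIs but no Xist 10 and 24. Median depths were 22137 and 16940 UMIs.

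Cells with Xist and cells with Y-linked RNA were both found among the smooth muscle cells labelled as female. Of the 185 deep cells of that library, 97 held Xist alone, 61 Y-linked UMIs alone, 10 both and 17 neither. Scrublet marked 4 of the 10 with both as doublets. Of the 25 deep cells of the other library, 22 held Y-linked UMIs alone, 3 neither, and 0 Xist. Among the mural-poor cells, the 92 with Xist alone and the 53 with Y-linked UMIs alone held 6.87% and 7.63% of their UMIs in the 10 muscle genes. Of 2709 genes, 3 were at least 4-fold higher in the former (Xist, Cxcl12 and Clec3b) and 2 in the latter (Ddx3y and the skeletal muscle marker Tnnt3). Cxcl12 and Clec3b are also fibroblast genes, and the fibroblast gene Dcn stood at 1119 and 298 CPM in these sums; its part in the result was not tested. Acta1 stood at 959 and 1543 CPM in these sums and Igfbp2 at 479 and 1429 CPM. How many animals stand behind each group is not given.

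Summed over all smooth muscle cells, 10 of 3082 genes (0.324%) were at least 4-fold higher in the library labelled detrusor-only and 92 (2.99%) at least 4-fold higher in the library labelled detrusor-enriched. The 5 leading genes on the former side were Xist (at least 32.5-fold against a floor of 3 counts over the group, with an exact lower 95% limit of 26.4), Actc1, Pcp4, Trdn (triadin, which anchors calcium release) and Acta1. Pcp4 was 14.2 times higher (95% interval 10.6 to 19.5) and Acta1 11.1 times (8.47 to 14.9). On the latter side the leading genes were the urothelial genes Ly6d, Wfdc2, Krt18, Krt15 and Krt7. These 5 were at 177, 122, 132, 97.8 and 91.6 CPM in the smooth muscle cells and at 1148, 952, 597, 643 and 493 CPM in the other cells of the same library. In its 49 shallow cells Ly6d stood at 1044 CPM. The 10 urothelial genes of the list together took 0.0603% of UMIs in the smooth muscle cells of that library and 0.381% in the shallow ones, against 0.000468% in the smooth muscle cells of the other, and their part in the result was not tested.

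The 11 genes of the striated-type list, Pcp4 included, took 0.466% and 0.0975% of UMIs over all smooth muscle cells of the 2 libraries. Over the deep mural-poor cells they took 0.491% and 0.172%, a smaller gap. In these mural-poor cells, Acta1 stood at 1242 CPM in the library labelled detrusor-only and 163 in the library labelled detrusor-enriched. Pcp4 stood at 1376 and 49.4 CPM and Actc1 at 130 and 0. Tnnt2 (1687 and 1264 CPM), Actg2 (7847 and 7498) and Des (7237 and 7202) were close. The latter sum rests on 8 cells and 202581 UMIs, with a median mitochondrial share of 16.05% against 9.79% in the former, and its part in the difference was not tested. The plot of the kinds sets these levels beside the nuclei.

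**Figure D4:**
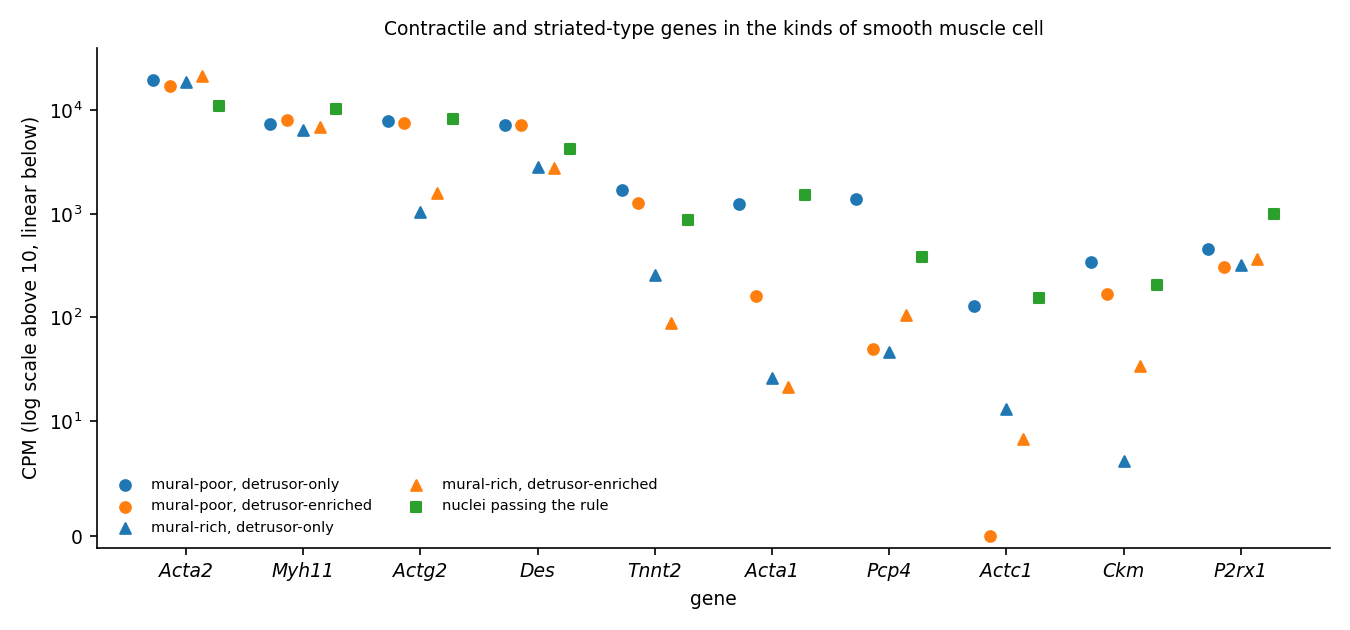
Level in CPM (log scale above 10, linear below) of 10 muscle genes in the deep mural-poor (circles) and mural-rich (triangles) cells of each library, and in the 1423 nuclei passing the rule (squares). Acta2 and Myh11 lie close together in all kinds of cell, while Actg2, Des, Tnnt2, Acta1 and Ckm are lower in the mural-rich cells of both libraries.

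Immediate-early genes, which respond to tissue handling and other stimuli within minutes to hours, took 2.33% of the UMIs of smooth muscle cells and 3.81% of the other cells in the library labelled detrusor-only (24 genes). In the other library these shares were 1.90% and 1.95%, and the direction turned with at most 10% mitochondrial counts (3.01% and 2.05%), while a limit of 1% on Actg2 and Des gave 0.979% and 1.95%. Of the 20 tested, 0 were 4-fold higher or lower in both libraries, beside 4.79% and 6.27% of all genes. Fos stood at 4689 and 3295 CPM and Jun at 3556 and 1338 CPM in the smooth muscle cells. The kinds of cell differed within each library. Mural-rich cells held 4.34% and 2.86% of UMIs in these genes and mural-poor cells 2.21% and 0.701%. Gadd45b, a growth-arrest gene, stood at 3571 and 1892 CPM in mural-rich and 342 and 133 CPM in mural-poor cells.

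The median mitochondrial share was 9.01% in the smooth muscle cells and 3.84% in the other cells of the library labelled detrusor-only, and 5.48% and 4.81% in the other library. By kind, the medians in the 2 libraries were 9.79% and 16.05% in mural-poor, 6.94% and 9.52% in mural-rich and 5.67% and 2.54% in shallow cells. Of the 731 barcodes of the library labelled detrusor-only over the 20% limit, 298 (40.8%) met the muscle conditions of the rule, as did 70 of 738 (9.49%) in the library labelled detrusor-enriched. Without the limit, the smooth muscle share was 8.45% and 2.34% of barcodes. Heat-shock genes took 1.01% and 0.586% of UMIs in the smooth muscle cells against 1.35% and 0.624% in the other cells. Hspb1, a small heat-shock protein, went the other way, at 3516 and 1428 CPM against 1892 and 435.

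The bulk libraries gave the comparison with replicates. Their values did not enter the ranking of the leading genes, but that muscle genes are lower in dissociated bladders was known from earlier work on these files, so the counts below are no independent support. Of 16538 genes tested with edgeR's quasi-likelihood test, 31.3% were lower and 27.9% higher in dissociated than intact bladders at an adjusted p under 0.05. In bulk RNA, fewer cells of a type and less RNA per cell cannot be told apart. All 50 leading genes were lower, with a median log2 fold change of -3.31 (all genes tested: -0.03) and a range from -5.03 for Acta1 to -0.86 for Psd. Every dissociated library lay below every intact one for all 50, as for 42.3% of all genes.

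P2rx1 stood at 902, 941 and 831 CPM in the 3 intact and 41.4, 28.1 and 17.9 CPM in the 3 dissociated libraries. The groups did not overlap, and the log2 fold change was -4.82 (SE 0.30, adjusted p = 1.44e-05, edgeR). Tnnt2 stood at 356, 328 and 445 CPM against 26.4, 28.2 and 18.4, again without overlap (log2 fold change -3.84, SE 0.19). Col25a1 stood at 61.4, 68.4 and 58.3 CPM against 3.84, 4.66 and 2.44 (-3.99, SE 0.20). The other 7 of the first 10 (Ckm, BC051019, Fhod3, Ank1, Optc, Sntg2 and Sh3bgr) had log2 fold changes between -4.55 and -3.31. Of the promoters shown above, Acta1 fell from 574, 460 and 406 CPM to 16.6, 18.3 and 5.91, Myl9 by 3.50 on the log2 scale, Asb2 by 3.28 and Myom1 by 2.87. Rergl, at 0.260, 0.422 and 0.692 CPM against 1.07, 0.962 and 0.579, did not pass the test (log2 fold change 1.04, SE 0.41, adjusted p = 0.0578, edgeR).

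Several receptors and channels were also lower in dissociated bladders. Chrm2 fell from 27.5, 27.6 and 32.1 CPM to 1.74, 1.81 and 2.27 (log2 fold change -3.79, SE 0.15, adjusted p = 1.8e-06, edgeR). Chrm3 fell by 3.29 on the log2 scale (SE 0.21), and Tacr2, a tachykinin receptor, from 15.3, 18.5 and 18.1 to 0.356, 0.444 and 0.0827. On the log2 scale Kcnf1 fell by 5.46, Kcnmb1 by 3.46 and Kcnma1 by 2.86. Of 24 contractile genes beyond the rule, 23 were lower and 0 higher, and of 21 channel and calcium genes 14 were lower and 2 higher. Of the 15 adhesion genes 12 were lower and 0 higher. Other lists were split: 8 of 18 receptor genes were lower and 6 higher, 4 of 13 regulators lower and 3 higher, and 6 of 10 striated-type genes lower and 2 higher, beside the 31.3% and 27.9% of all genes. Members of several lists, such as Tpm2, Kcnma1, P2rx1, Myocd and Acta1, are also leading genes. The counts of those lists thus repeat part of the result above. Genes of other cells and of stress moved too: all 12 fibroblast genes were higher in dissociated bladders (median log2 fold change 1.36), as were 8 of 9 endothelial genes (median 0.94), 8 of 10 immune genes and all 24 immediate-early genes (median 4.92). Of 5 Schwann cell genes, 4 were lower and 0 higher (median -0.55), and of 10 urothelial genes 4 were lower and 3 higher. Their part in the muscle result was not tested.

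Genes that marked the 2 kinds of muscle cell moved apart in the bulk libraries. For each kind, the 30 genes with the largest ratio to the other kind that were also at least 2-fold above the other cells of both libraries were taken, a choice made after the cells had been seen. For these lists and for the 11 mural genes, the shares over all genes tested were 31.3% lower and 27.9% higher. Of the 30 mural-poor genes, 27 were lower and 0 higher (median log2 fold change -1.97). Optc, Sntg2, Bdh1, Popdc2, Fhod3 and Acta1 are also among the leading genes, so this count repeats part of the result above. Of the 30 mural-rich genes, 21 were higher and 1 lower (median 1.09), and 20 had every dissociated library above every intact one, as had 25.6% of all genes. The other cells of the detrusor libraries also held such genes, among them Notch3 at 32.0 and 29.0 CPM and Lrrc32 at 48.0 and 34.4. Their part in the rise was not tested. Of the 11 mural genes used for the split, 5 were lower and 3 higher, not far from the 31.3% and 27.9% of all genes. Crip1 was higher too (log2 fold change 1.00, SE 0.13, adjusted p = 0.000413, edgeR), but it is no gene of the mural-rich cells alone, with 1664 and 1147 CPM in the other cells of the detrusor libraries. Rims1, a synaptic scaffold, fell by 4.88 on the log2 scale. Igfbp2, Fgf7 and Fn1 were the 3 mural-poor genes that did not pass, at log2 fold changes of -0.30, 0.07 and 0.04. Dgkb stood at 3.25, 3.81 and 2.69 CPM in intact and 10.5, 11.7 and 12.1 in dissociated bladders, with no overlap (log2 fold change 1.91, SE 0.16, adjusted p = 6.03e-05, edgeR). Susd5, a sushi-domain protein, stood at 1.43, 1.37 and 1.58 against 5.48, 5.44 and 5.17. Nrarp, a Notch-induced gene, was the mural-rich gene that fell, from 17.6, 13.5 and 16.2 CPM to 5.05, 3.22 and 4.96.

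**Figure D5:**
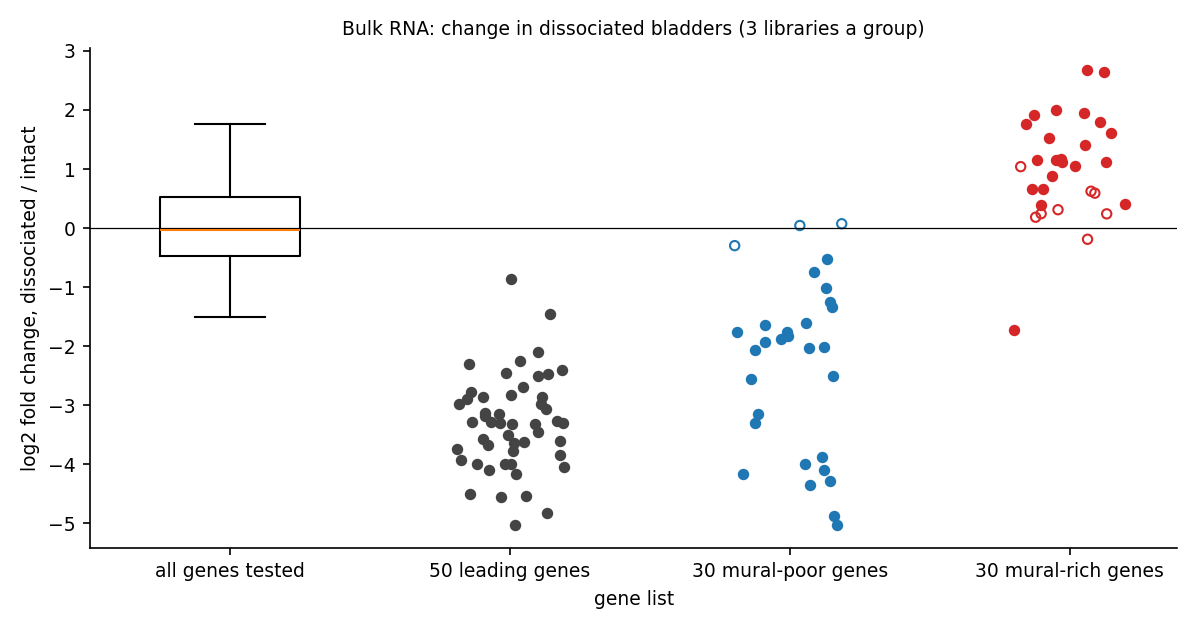
Log2 fold change of dissociated over intact bladders (edgeR, 3 libraries a group) for the 50 leading, 30 mural-poor and 30 mural-rich genes; filled points passed the test and open points did not, and the box gives the median, quartiles and 5% to 95% range of all 16538 genes. All 50 leading and 27 of 30 mural-poor genes are lower, while 21 of 30 mural-rich genes are higher and 1 is lower. Some genes, such as Acta1, are on both the leading and the mural-poor list.

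Nuclei and sections, which were not dissociated into whole cells, show where the levels of the 2 detrusor libraries lie. The muscle rule took in 1423 of 3471 nuclei (41.0%). In the 5 whole-bladder cell libraries it took in from 0 of 956 to 36 of 9080 passing barcodes (0.396%). In those of 3 and 22 months the median mitochondrial share was 0 and 0 barcodes exceeded the limit, so it could not act there. The nuclei outside the rule held Actg2 at 1045 CPM and Myh11 at 1339, against 8216 and 10312 in those passing it. The nuclei, labelled with both sexes, held Xist at 1.15 CPM. Nuclei in the rule held Acta1 at 1524 CPM, Tnnt2 at 863, Pcp4 at 382 and Actc1 at 153, and Crip1 at 171. The Acta1 and Actc1 levels lie above those of both detrusor libraries, and the Pcp4 level lies between them. Carmn, a nuclear RNA, stood at 3778 CPM in nuclei against 178 and 448 in the smooth muscle cells. In the 4 sections, where every spot mixes cells, Acta1 ran from 132 to 675 CPM and Tnnt2 from 148 to 337.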

How the data were processed

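Droplet libraries of bladder cells were analysed from the deposited tables of UMI counts, with barcodes in rows and gene symbols in columns; the bulk table holds deposited read counts per gene. Per the submitters' processing notes, Cell Ranger, Space Ranger, Subread and featureCounts were used with build mm10; roles and versions are not given in the sources used here. The members, lists and tests were chosen with earlier results of these data known.

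UMIs were summed over the smooth muscle cells and over the other cells of each library and scaled to CPM. Counts carry exact 95% Poisson intervals, shares Clopper-Pearson intervals and ratios the exact conditional interval. Genes entered a comparison at 50 CPM or more in at least the higher of the 2 sums, in both libraries where both are used, and the fold used was 4. Doublets were kept in the main values; Scrublet (scanpy 1.11.5) marked 328 and 304 barcodes, 15 and 10 of them smooth muscle cells, and their removal was an alternative. Bulk counts (23083752 to 68760791 reads a library) were fitted with edgeR 4.0.16 (quasi-likelihood, robust, TMM, filterByExpr, Benjamini-Hochberg, threshold 0.05, two-sided), with DESeq2 1.42.0 as an alternative; the bulk fit was tested on simulated data. Nothing says that the 3 bulk libraries of a group are separate pools, so p-values measure the spread between libraries, which may be technical.

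Genes named were the list members with the highest levels or past 4-fold in both libraries, the 20 first leading genes, the 10 lowest, the 5 leading genes on each side between libraries (predicted genes passed over) and, in bulk, the first 10 leading genes. The split by mural genes, its lists, the genes named from it, the receptors, channels and marker genes below 50 CPM, the list members named for staying under 4-fold (Vcl, Tln1 and Cryab), and Smtnl2, Crip1, Kcnf1, Tacr2, Psd, and the genes named for their spread were chosen after values were seen.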

Additional observations from a re-analysis of the deposited data

Results flagged for a closer look

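The 4 Y-linked genes stood at 79.3 CPM in the library labelled detrusor-only, whose label names 3 females and 0 males. These genes mark the sex of the donors and are outside the main measurement. The 2 cell libraries labelled with males alone held 136 and 181 CPM, and the 4 sections labelled with males alone held 109 to 119 CPM.

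The 11 pericyte and vascular mural genes took a share of UMIs in the smooth muscle cells that was 0.667 times that of the other cells in the library labelled detrusor-only and 4.54 times in the library labelled detrusor-enriched. The directions are opposite, each library is a single pool, and the difference was not tested. By kind, these genes took 0.0238% and 0.0434% of UMIs in mural-poor, and 0.177% and 0.277% in mural-rich cells, in the same order. The shallow cells held 0.138% and 0.0792%. Mural-poor and mural-rich cells were split by these genes, so their shares follow from the choice. Mural-rich cells carried 4.45% and 48.2% of the smooth muscle UMIs of these libraries, and their part in the result was not tested.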

How the results depend on the processing

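The share of barcodes in the rule in the library labelled detrusor-only (4.29%) became 2.69% at 10% mitochondrial counts, 3.28% with the 10 muscle genes at 4%, 2.43% with Actg2 and Des at 1% and 8.45% with no mitochondrial limit. In the library labelled detrusor-enriched (1.36%) it became 0.516% at 4%, 0.313% at 1%, 0.782% from 5000 UMIs and 2.34% with no mitochondrial limit. The immediate-early share of smooth muscle UMIs in the former (2.33%) became 3.11% at 10% mitochondrial counts, 2.13% at 4%, 1.99% at 1%, 2.26% without doublets, 2.30% from 5000 UMIs, 2.32% with no mitochondrial limit, 2.77% as a mean over cells, and 2.21%, 4.34% and 3.64% in mural-poor, mural-rich and shallow cells. In the latter (1.90%) it became 3.01% at 10% mitochondrial counts, 0.979% at 1%, 1.95% without doublets, 1.33% with no mitochondrial limit, and 0.701%, 2.86% and 2.22% in the 3 kinds; against the other cells it was lower in the main setting (1.95%), higher at 10% mitochondrial counts (2.05%) and close to equal without doublets (1.95%). The cause was not tested. The limits at 5000 UMIs and without mitochondria, and the kinds, were chosen after the data were seen.

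In bulk, all 50 leading genes were lower with DESeq2, RLE factors, no filter, the replicate block and each library left out (50 to 50), and all 25 of a list of 25. Ranked in the library labelled detrusor-enriched alone, 42 of 50 were lower and 4 higher. The mural-rich count ran from 20 to 22 and the mural-poor from 26 to 28 with a library left out, and was 22 and 27 under the replicate block. Whether replicate numbers pair the libraries could not be decided, as the correlations used deviations from means of 3 libraries a group. The same-number correlations were 0.28, 0.38 and -0.05, and those of different numbers ran from -0.50 to 0.30. The block is therefore known to share a number only. For the 10 named leading genes, 90 of 90 alternatives kept direction and call. The 8 deep mural-poor cells of the library labelled detrusor-enriched limit every comparison that rests on them.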
